A study of Mus musculus with 2 samples.

Results

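H3K9me2, dimethylation of lysine 9 of histone H3, was examined at 8 semaphorin genes of the mouse, Sema3a, Sema3c, Sema3d, Sema3e, Sema5a, Sema5b, Sema6a and Sema6d. They were chosen by name, with earlier results of these data known, out of 20 semaphorin genes and 21519 protein-coding genes placed on chromosomes 1 to 19 and X. A gene was given every peak that overlapped its RefSeq body extended by 2 kb on either side, and peaks lying between the Sema3 genes of chromosome 5 were also collected. The data were 2 peak lists from chromatin immunoprecipitation and sequencing of cortex taken from C57BL/6 embryos at embryonic day 15.5. One library was wild-type and one carried TBC1D3, a hominoid gene, as a transgene. The labels do not give the promoter of the transgene, the founder line, or the number of embryos behind each library. With 1 library per genotype no test between genotypes was possible, and each interval below is a 95% interval for counting error only. Peaks of a chromatin mark do not measure transcripts, so the tissue label could not be checked against marker genes.

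Semaphorins are secreted or membrane-bound guidance proteins that share the sema domain and signal to growing axons, dendrites and migrating neurons. Class 3 members are secreted and act mostly through a neuropilin, which binds the ligand, and a plexin, which carries the signal into the cell, while members of classes 5 and 6 cross the membrane and bind plexins. H3K9me2 is a mark of repressed chromatin that is written largely by G9a (Ehmt2) and GLP (Ehmt1), and it often lies over broad regions rather than at points.

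Few peaks lay in these genes in either library. The wild-type list held 1 peak in the 8 genes, of 743 in all, and that peak was in Sema6d. The transgenic list held 4, of 6253 in all: 2 in Sema6d and 1 each in Sema3e and Sema5a. All 5 peaks lay inside a gene body. Sema3a, Sema3c, Sema3d, Sema5b and Sema6a had 0 peaks in both lists. One member of 8 with a wild-type peak stands beside 0.911% of all coding genes, and 3 of 8 with a transgenic peak stand beside 5.68%. The members are long, with a median of 219 kb and a range from 123 kb in Sema5b to 578 kb in Sema6d, and long genes have room for more peaks. Among coding genes of 100 to 200 kb, the class of Sema3c, Sema5b and Sema6a, 2.44% held a wild-type and 15.3% a transgenic peak. These 3 members held 0 in both. Among genes of 200 to 500 kb, the class of Sema3a, Sema3d, Sema3e and Sema5a, the shares were 7.99% and 41.9%, against 0 of 4 and 2 of 4 members. Among genes over 500 kb, which include Sema6d, they were 24.3% and 84.5%. The shares of the members' own length classes add up to 0.636 genes with a wild-type peak and 2.98 with a transgenic peak, so the observed 1 and 3 were near what genes of this length held in these lists.

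**Figure D1:**
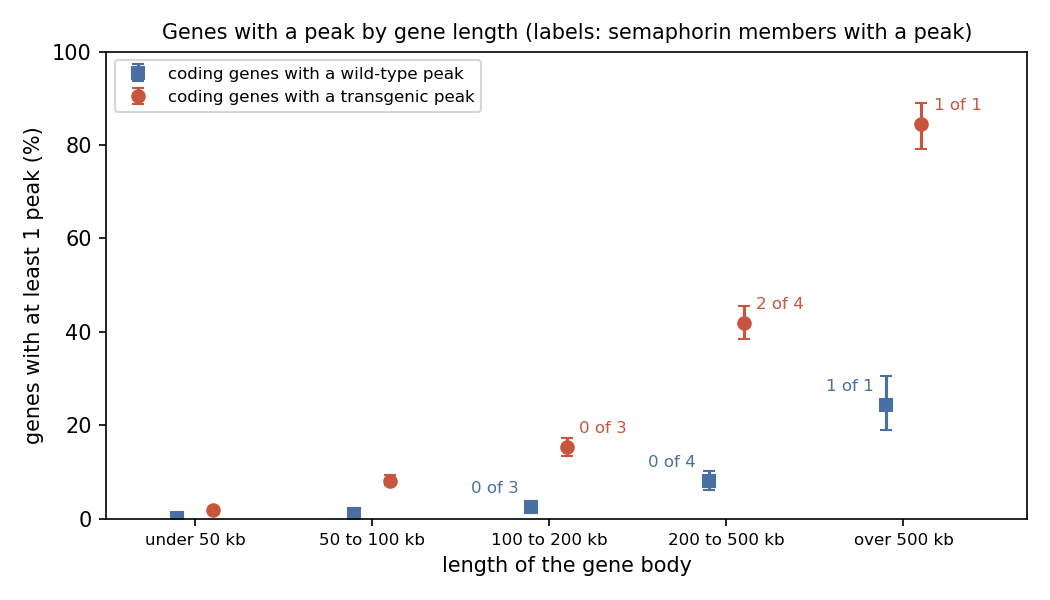
Share of coding genes with at least 1 H3K9me2 peak (vertical axis, %) by length of the gene body (horizontal axis), for the wild-type list (squares) and the transgenic list (circles), with exact 95% binomial intervals. The share climbs from 1.74% under 50 kb to 84.5% over 500 kb in the transgenic list, and the labels beside the points give how many of the 8 semaphorin members in that class held a peak.

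Peak density gave the same picture. The 8 extended genes span 2.38 Mb. The mean density of their chromosomes gives 0.737 wild-type peaks for this span, where 1 was seen (interval 0.0253 to 5.57), and 5.69 transgenic peaks, where 4 were seen (interval 1.09 to 10.2). The ratio of transgenic to wild-type peaks in the members was 4, with an exact interval from 0.396 to 197 that includes the ratio of the whole lists, 8.42. Without Sema6d the other 7 genes held 0 wild-type and 2 transgenic peaks, where their chromosomes give 0.555 and 4.30. With so few peaks, a departure of the members' ratio from that of the whole lists was thus not detectable. With 1 library per genotype, a genotype difference could not have been told from a difference between libraries at any number of peaks.

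**Figure D2:**
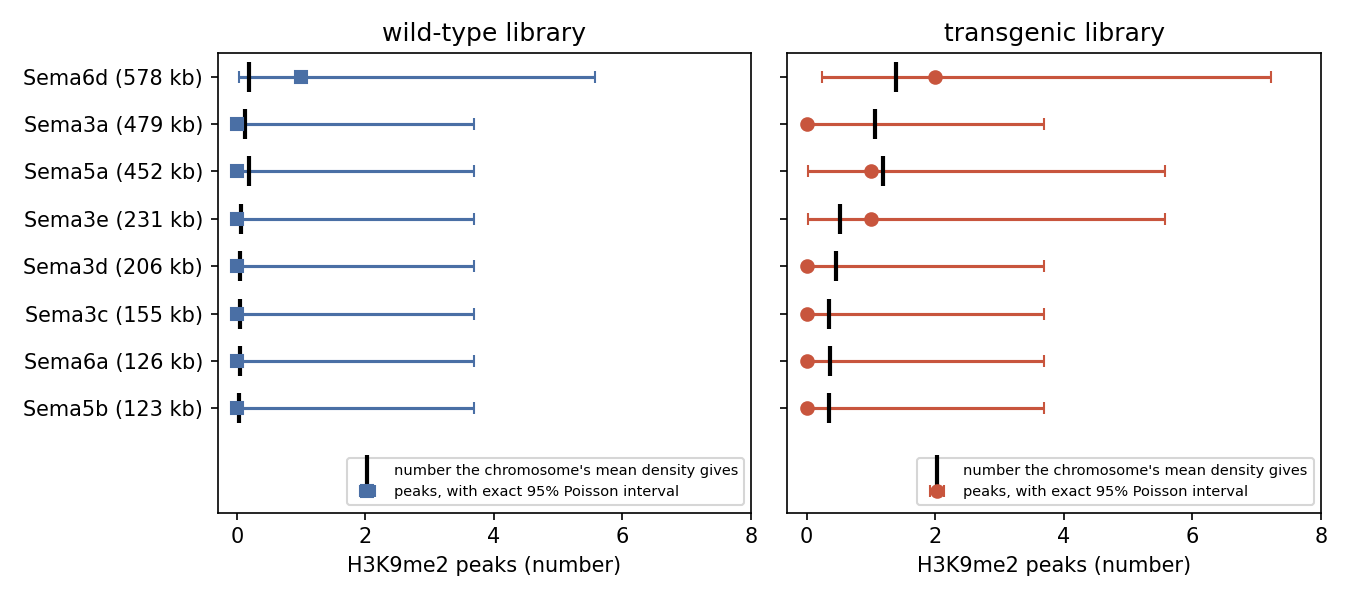
Number of H3K9me2 peaks (horizontal axis) in each of the 8 semaphorin genes, ordered by length, in the wild-type list (left) and the transgenic list (right). Symbols are the counts with exact 95% Poisson intervals and black ticks are the numbers that the mean density of the gene's chromosome gives, which lie inside the interval for each of the 8 genes in both lists.

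No peak of either list touched the start site of a semaphorin member. RefSeq start-site windows of GRCm38.p6, from 250 bases before to 50 after the start, were at hand for 7 of the 8 members (8 windows, since Sema6d has 2), with Sema6a not among them. Of the 32619 windows of all genes on these chromosomes, 2 overlapped a wild-type and 19 a transgenic peak, or 0.00613% and 0.0582%, so 0 of 8 sets these genes apart in no way. The 250 bases before the start are printed for the 3 genes that held a peak, as the points from which the distances below are counted, and for Sema3c, whose window has the most CG dinucleotides of the 8. All run 5′ to 3′ on the plus strand, with each CG in capitals. The Sema6d window is the upstream one of its 2, at chr2:124089719-124089968. The Sema3e window is chr5:14025026-14025275, the Sema5a window chr15:32244563-32244812 and the Sema3c window chr5:17574566-17574815.
Sema6d: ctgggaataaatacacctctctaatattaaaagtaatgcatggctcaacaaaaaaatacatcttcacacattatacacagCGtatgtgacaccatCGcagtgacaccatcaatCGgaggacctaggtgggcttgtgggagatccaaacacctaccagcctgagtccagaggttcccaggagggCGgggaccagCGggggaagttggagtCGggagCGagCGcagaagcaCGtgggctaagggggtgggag
Sema3e: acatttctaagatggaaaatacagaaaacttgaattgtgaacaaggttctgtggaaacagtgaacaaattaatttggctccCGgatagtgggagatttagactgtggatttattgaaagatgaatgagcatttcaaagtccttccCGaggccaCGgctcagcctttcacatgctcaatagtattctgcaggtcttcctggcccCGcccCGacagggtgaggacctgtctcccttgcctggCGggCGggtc
Sema5a: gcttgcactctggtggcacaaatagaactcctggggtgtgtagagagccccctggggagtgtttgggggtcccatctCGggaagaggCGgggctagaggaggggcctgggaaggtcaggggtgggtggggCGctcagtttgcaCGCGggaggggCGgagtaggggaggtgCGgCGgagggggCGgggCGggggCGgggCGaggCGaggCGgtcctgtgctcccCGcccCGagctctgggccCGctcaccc
Sema3c: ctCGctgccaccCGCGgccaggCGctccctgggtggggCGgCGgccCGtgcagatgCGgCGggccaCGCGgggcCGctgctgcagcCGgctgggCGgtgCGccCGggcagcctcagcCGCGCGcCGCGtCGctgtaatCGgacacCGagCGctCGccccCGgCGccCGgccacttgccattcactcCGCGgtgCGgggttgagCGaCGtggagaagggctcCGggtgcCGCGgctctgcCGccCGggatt
These windows differ in base composition. CG, which reads the same on both strands, occurs 9 times before Sema6d, 7 times before Sema3e, 17 times before Sema5a and 39 times before Sema3c. The median of all windows is 6, and 92.2% hold at least 1. Only 1.58% of all windows hold as many as that of Sema3c. The other 4 member windows hold 2 (Sema3a), 4 (Sema3d), 19 (Sema5b) and 6 (the downstream start of Sema6d). Since neither list has a peak in any of the 8, peaks cannot be related to this composition.

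Sema6d, a transmembrane class 6 semaphorin that binds plexin A1, was the member with peaks in both libraries. Its body lies at chr2:124089943-124667789 and is longer than all but 0.771% of coding genes. The wild-type peak, at chr2:124192219-124192275, was 57 bp wide and rested on 8 fragments over a local background of 1.00. Fragments are the extended reads over the peak's summit, and fold enrichment, the authors' value here and below, is the pileup plus 1 over the background plus 1. Its fold was 4.30 and its listed q was 1. Of all wild-type peaks, 32.8% had a fold as high or higher. The summit lay 102 kb downstream of the upstream start site. In the transgenic library the first Sema6d peak, at chr2:124170407-124170531, rested on 7 fragments and had a fold of 3.92 and a q of 0.132. It lay 80.5 kb downstream of the same start. The second, at chr2:124384930-124385040, rested on 5 fragments, the fewest of any peak in the list, and had a fold of 3.20 and a q of 0.297. It lay 295 kb downstream of that start and 269 kb upstream of the other. The libraries thus shared the gene but no position: the wild-type peak was 21.7 kb from the nearer transgenic peak and 193 kb from the farther. Of all wild-type peaks, 16.8% had a transgenic peak as near as that, and the median distance was 93.4 kb. Holding a peak in both lists was a property of 23.9% of the 226 coding genes over 500 kb, and 57.5% of them held at least 2 transgenic peaks. The chromosome's density gives 0.182 wild-type and 1.39 transgenic peaks for Sema6d. The counts of 1 (interval 0.0253 to 5.57) and 2 (0.242 to 7.22) include those numbers.

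**Figure D3:**
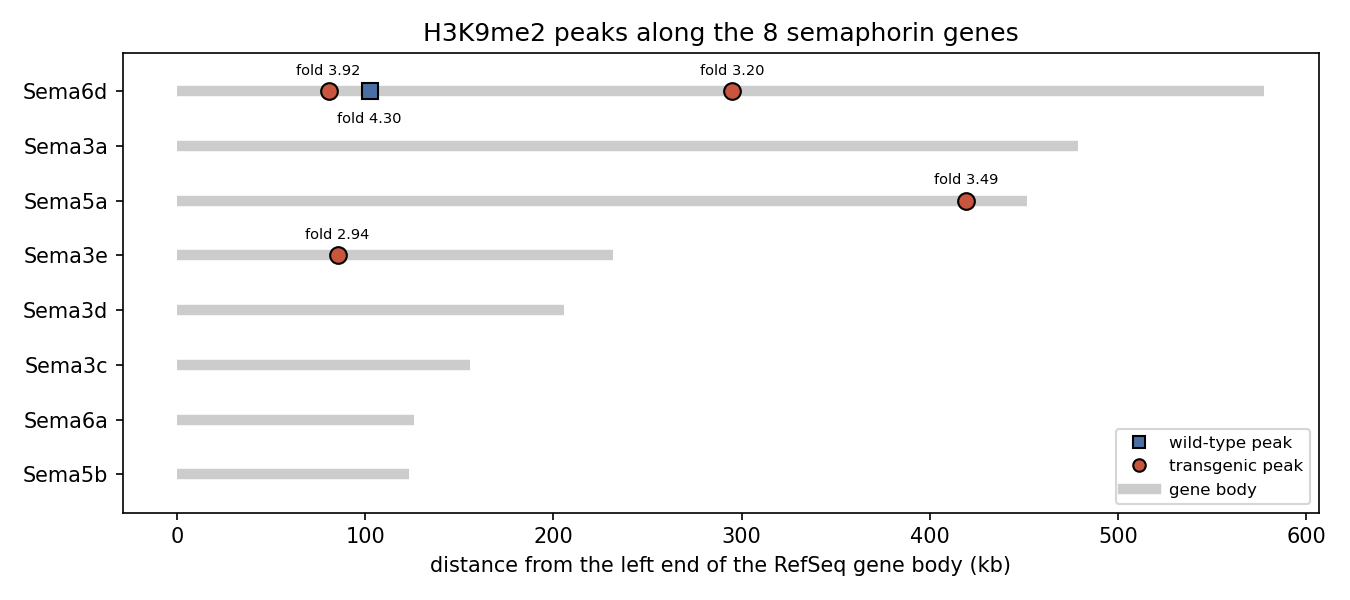
Positions of the H3K9me2 peaks along the 8 semaphorin genes, in kb from the left end of each RefSeq gene body (horizontal axis), with gene bodies as grey bars, wild-type peaks as squares, transgenic peaks as circles and the authors' fold beside each. Of the 5 peaks 3 are in Sema6d, where the wild-type peak lies between the 2 transgenic ones, and 5 genes have none.

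Sema6a, the other class 6 member, is a transmembrane ligand of plexins A2 and A4 that acts in neuronal migration and axon guidance. It lies at chr18:47245254-47371200 and held 0 peaks in both lists, where the chromosome gives 0.0445 and 0.369. The nearest transgenic peak was 81.9 kb from the gene and the nearest wild-type peak 601 kb. By a one-sided limit a count of 0 allows up to 3 peaks, which over the extended Sema6a is 23.1 peaks per Mb, and the two-sided interval used elsewhere reaches 3.69 peaks. Either limit is far above the mean transgenic density of the autosomes, 2.53 per Mb, and so a lack of peaks could not be detected in a gene of this size.

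The class 5 members are transmembrane proteins with thrombospondin repeats outside the cell. Sema5a held 1 transgenic peak and Sema5b 0, which does not show that the genes differ. The Sema5a peak, at chr15:32663939-32664049, had 6 fragments, a fold of 3.49 and a q of 0.216. A fold as high or higher was listed for 62.4% of transgenic peaks. It lay 419 kb downstream of the start, at 92.8% of the gene's length, so close to the 3′ end. The gene, at chr15:32244813-32696341, is 452 kb long, and its chromosome's density gives 1.19 transgenic peaks, near the 1 seen. Within 500 kb on either side and in the gene, Sema5a had 3 wild-type and 3 transgenic peaks, the highest wild-type number among the 8 members. This is 2.07 per Mb in each list, beside 0.426 wild-type and 2.62 transgenic peaks per Mb over chromosome 15. The highest of 8 was picked, so the wild-type number is a description only. The nearest of the wild-type peaks was 262 kb from the gene. Sema5b, at chr16:35541154-35664261, is the shortest member, and density gives 0.0307 wild-type and 0.350 transgenic peaks for it. Its nearest transgenic peak was 464 kb away, the farthest of any member, and its nearest wild-type peak 3030 kb. It has 15 other coding genes within 500 kb, against 1 to 5 for the other 7 members.

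The 4 class 3 genes, which encode secreted ligands, lie on chromosome 5 in the order Sema3d, Sema3a, Sema3e and Sema3c, and held 1 transgenic and 0 wild-type peaks. Sema3a, at chr5:13124822-13603485, encodes a repellent of cortical axons that signals through neuropilin 1. Although it is 479 kb long, it held 0 peaks in both lists, where the chromosome's density gives 0.127 and 1.06. Of coding genes in its length class 41.9% held a transgenic peak. Its RefSeq start-site window lies well inside the annotated body, and the nearest transgenic peak was 374 kb from that start and 167 kb from the gene. Sema3d (chr5:12383161-12588953) held 0, where the density gives 0.0550 and 0.460. The nearest transgenic peak was 156 kb to its left. Sema3c (chr5:17574816-17730268), an attractant of cortical axons, also held 0, with 0.0418 and 0.350 given by density and the nearest transgenic peak 306 kb away. Sema3e, at chr5:14025276-14256689, signals through plexin D1 and can do so without a neuropilin. It held the 1 class 3 peak, at chr5:14110496-14110629, 85.3 kb downstream of the start. That peak rested on 5 fragments over a background of 1.04, with a fold of 2.94 and a q of 0.363. It was among the weakest of its list, since 94.4% of transgenic peaks had a fold as high or higher. The distance to the nearest wild-type peak ranged from 1088 kb for Sema3c to 6229 kb for Sema3d. Its median over all coding genes was 1702 kb, so a distant wild-type peak is usual in this short list.

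Between the 4 Sema3 genes, over 4.26 Mb outside their extended bodies, the transgenic list held 5 peaks (interval 1.62 to 11.7) where the chromosome's density gives 9.35. The wild-type list held 0 where density gives 1.12, and a count of 0 allows up to 3 peaks by the one-sided limit, or 0.704 per Mb, and 0.865 per Mb by the two-sided interval. The 5 transgenic peaks were not spread evenly. Between Sema3d and Sema3a, over 0.532 Mb with 0 coding genes, there was 1 peak, at chr5:12761034-12761174, with 7 fragments and a fold of 4.03. It lay 172 kb from Sema3d. Between Sema3a and Sema3e, over 0.418 Mb, there were 3 (interval 0.619 to 8.77), where density gives 0.916. Between Sema3e and Sema3c, over 3.31 Mb, there was 1 (interval 0.0253 to 5.57), where density gives 7.27, a number above the interval. The 15 coding genes of this segment include several of the Speer family of similar gene copies. The share of the segment where reads can be placed was not measured. The segments are those of the gene order, but 3 of them were looked at and no correction was made for that.

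**Figure D4:**
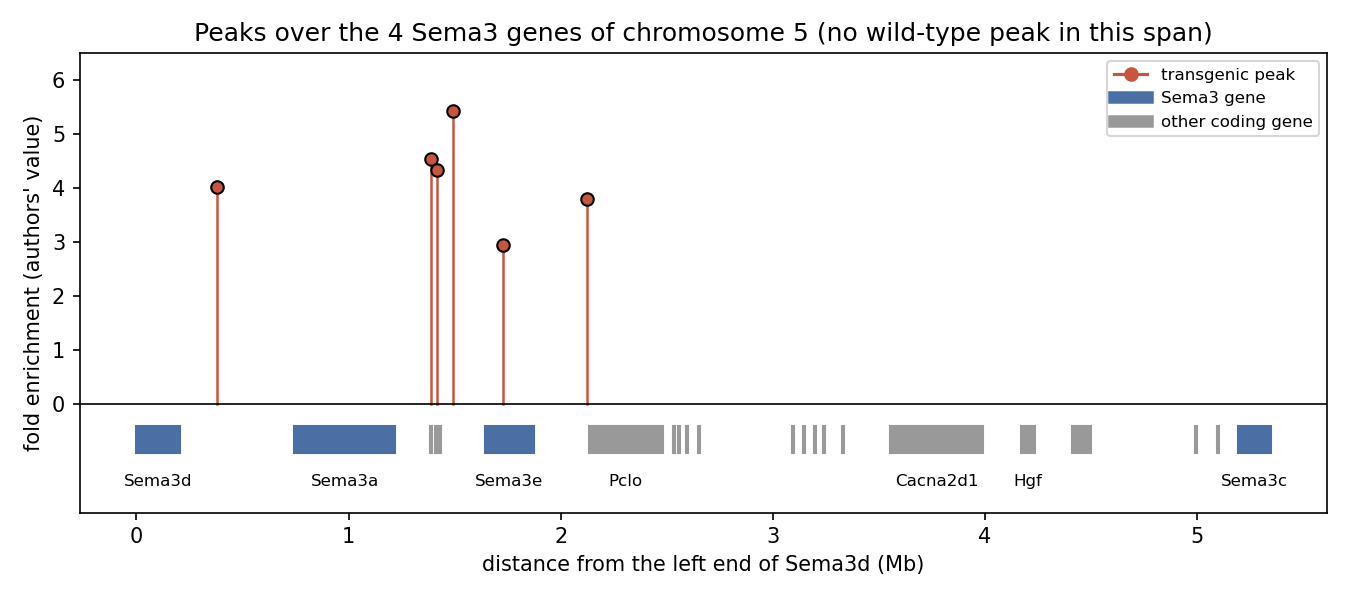
Transgenic H3K9me2 peaks over the 4 Sema3 genes of chromosome 5, by distance from the left end of Sema3d in Mb (horizontal axis) and the authors' fold enrichment (vertical axis), with Sema3 genes in blue and other coding genes in grey below. The 6 peaks all lie in the left part, up to 2123 kb, and the span from there past Pclo, Cacna2d1 and Hgf to Sema3c holds none. The wild-type list has 0 peaks in the whole span.

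The 3 peaks between Sema3a and Sema3e lay 167 to 272 kb beyond the right end of Sema3a. The first, at chr5:13770515-13770625, was inside Gm6647, a predicted coding gene, and had 8 fragments, a fold of 4.53 and a q of 0.0742. The second, at chr5:13798644-13798754, lay 1.82 kb from Speer3, in the flank of the gene, with 7 fragments, a fold of 4.34 and a q of 0.0895. The RNA gene 4930568A13Rik also lies within 2 kb of it. The third, at chr5:13875119-13875255, lay within 2 kb of the pseudogene Gm35702 and 60.3 kb from the nearest coding gene, Gm6650. It rested on 9 fragments over a background of 0.841, the same background as that of the second peak. It had a fold of 5.43, which 20 transgenic peaks have. Its q was 0.0673, the lowest q of the whole list and one that other peaks share. Only 0.960% of transgenic peaks had a fold as high or higher. These 3 peaks were thus higher in fold than the 4 transgenic peaks in the semaphorin genes themselves, whose highest fold was 3.92. Fold depends on the background as well as on the fragments. The backgrounds were 0.986, 0.841 and 0.841 for these 3 peaks, and 0.876 to 1.04 for those in the semaphorin genes. Speer3 belongs to a family of similar gene copies, and reads of copies can be hard to place. The file headers name input files with "uni" in their names, and what the placing of reads did to these peaks was not tested.

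Of the 18 other coding genes between the ends of the Sema3 row, Gm6647 and Speer3 held a transgenic peak by the same rule and 0 held a wild-type peak. The 4 longest held none: Pclo, a presynaptic scaffold of 349 kb, Cacna2d1, a calcium channel subunit of 440 kb, Gm28710, a predicted gene of 90.6 kb, and Hgf, a growth factor of 65.9 kb. Density gives 0.773, 0.974, 0.208 and 0.153 transgenic peaks for them. For Gm6647 and Speer3 it gives 0.0193 and 0.0202, below the interval of a count of 1 (0.0253 to 5.57). These 2 genes are named because they held a peak, and a count of 1 in any gene this short gives the same outcome. The comparison therefore carries no information about them. Among all coding genes 5.68% held a transgenic peak and 0.911% a wild-type peak. The shares were 1.74% and 0.139% among those under 50 kb, the class of Gm6647 and Speer3. The fifth peak of the row, at chr5:14506406-14506516, with 6 fragments and a fold of 3.80, lay 8.39 kb to the left of Pclo, outside its flank.

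The other 12 semaphorins, Sema3b, Sema3f, Sema3g, Sema4a, Sema4b, Sema4c, Sema4d, Sema4f, Sema4g, Sema6b, Sema6c and Sema7a, held 0 peaks in both lists. They are short, with a median of 20.3 kb and only Sema4d over 100 kb, and together span 0.383 Mb with flanks. Density gives 0.124 wild-type and 1.04 transgenic peaks for this span, so 0 peaks could not be told from the mean. Their length classes add up to 0.344 genes with a transgenic peak.

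Among the receptors, co-receptors and binding partners of semaphorins, a list also drawn up with earlier results known, 5 of 19 genes held a transgenic peak and 0 held a wild-type peak. The length classes of these genes add up to 2.21 and 0.377. Their 8 transgenic peaks (interval 3.45 to 15.8) compare with 5.23 by density, and all 8 lay inside a gene body. Plxna3, Plxnb3 and L1cam lie on chromosome X, where the whole wild-type list held 1 peak. Its density there was 0.00596 per Mb, against 0.309 per Mb on the autosomes, so their lack of a wild-type peak says little. Plxna4, which encodes the plexin that carries Sema3a and Sema6a signals in many neurons, held 3 peaks, where density gives 1.14 (interval 0.619 to 8.77). Their folds were 3.82, 4.32 and 3.18, on 7, 8 and 5 fragments. Having 3 or more was seen in 5.64% of coding genes of 200 to 500 kb. Chl1, an adhesion protein that associates with neuropilin 1, held 2 peaks, with folds of 4.03 and 3.52, where density gives 0.576, and 15.7% of its length class held at least 2. Nrcam, an adhesion protein of the same family, held 1 near its 3′ end, with 8 fragments, a fold of 4.53 and a q of 0.0742. Met, the receptor of Hgf and a partner of plexin B1, held 1 with a fold of 2.97. Plxnb3, on chromosome X and only 16.0 kb long, held 1 on 5 fragments with a fold of 3.20. The density of chromosome X gives 0.0192 peaks for it, just below the interval of its count (0.0253 to 5.57), and the autosomal density gives 0.0506, inside it. Plxnb3 is described because it held a peak, and a count of 1 in any gene this short on chromosome X gives the same outcome. The comparison therefore carries no information about it. In the class of Plxnb3, genes under 50 kb, 1.74% held a transgenic peak. The neuropilin genes Nrp1 and Nrp2 held 0 in both lists, although a transgenic peak lay 5.37 kb to the right of Nrp1, outside its flank. That was the shortest such distance among the genes of this list without a transgenic peak. Plxna1, Plxna2, Plxna3, Plxnb1, Plxnb2, Plxnc1, Plxnd1, L1cam, Itgb1, Cd72, Timd2 and Kdr also held 0 in both lists.

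Of 20 genes that act inside the cell on semaphorin signals, 1 transgenic peak lay in Dpysl2 and 1 in Gsk3b, and none of the 20 had a wild-type peak. Dpysl2 encodes CRMP2, a microtubule-binding protein that was found as a mediator of Sema3a, and its peak had 6 fragments and a fold of 3.52. The nearest wild-type peak lay 25.5 kb from Dpysl2, the shortest such distance among the 20 genes. Gsk3b encodes the kinase that phosphorylates CRMP2, and its peak had 5 fragments and a fold of 2.92. The classes of these 20 genes add up to 2.23 genes with a transgenic and 0.361 with a wild-type peak. The density of their chromosomes gives 4.51 transgenic peaks, against 2 seen (interval 0.242 to 7.22).

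**Figure D5:**
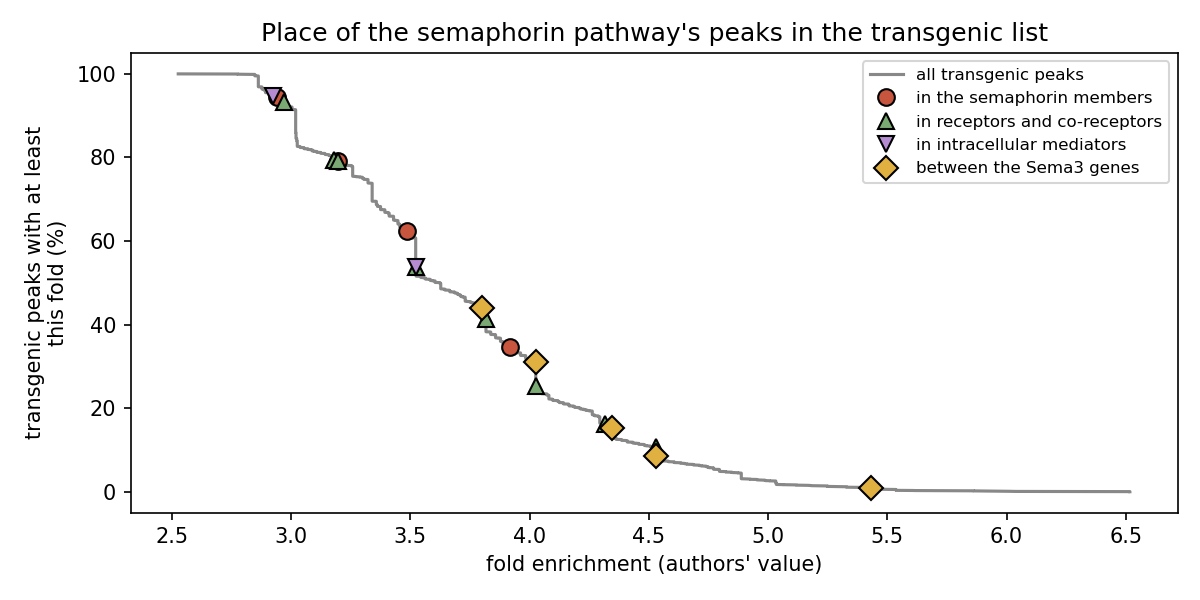
Share of all 6253 transgenic peaks with at least a given fold enrichment (grey line; vertical axis in %, horizontal axis the authors' fold), with the peaks of the semaphorin members, the receptors and co-receptors, the intracellular mediators and the Sema3 row marked. The 4 peaks in the members lie between folds of 2.94 and 3.92, and the highest marked point, at 5.43, is the peak between Sema3a and Sema3e.

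The lists set limits on each of these counts. Per the file headers, 26735120 ChIP tags were left after filtering for the wild type and 20697113 for the transgenic, with fragments extended to 57 bp and 111 bp, so the calls were not alike. The lowest q listed anywhere was 0.136 among wild-type and 0.0673 among transgenic peaks. A list also holds nothing about reads below its cutoff, so a gene with 0 peaks in one library and 1 in the other, such as Sema3e or Sema5a, is not shown to differ between them.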

How the data were processed

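The members and gene lists were chosen with earlier results of these data known. Each ChIP library was compared with its own input by the authors, per the file headers, using MACS 2.1.0.20150420 at a p of 0.001, with an effective genome size of 2730871774 bp. BWA and mm10 are named in the submitters' processing notes, with no BWA version. The deposited pileup signal is extended fragments over the summit with the larger library scaled to the smaller. Dividing by the scale (0.951 wild-type, 1 transgenic) gave whole fragments within 0.00491. The deposited fold is the ratio of pileup plus 1 to background plus 1. The background was worked out from the fold and the pileup. Whether it was local input or a genome-wide minimum at a given peak was not tested. The −log10 p and q are the authors' values, and q is listed although the headers say it was not calculated.

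Genes came from RefSeq on GRCm38.p6, which is the mm10 assembly. That table lists no exons, so a peak inside a gene could not be assigned to exon, intron or untranslated region. Genes starting before 3 Mb were left out. An overlap of at least 1 bp counted. Density is peaks per Mb from 3 Mb to the last gene or peak of a chromosome. Intervals are exact Poisson for counts and exact (Clopper-Pearson) binomial for shares. Named genes were all members, list genes with a peak, and coding genes of the Sema3 row with a peak. Others were named for their place or role. Overlap counting was tested on simulated data. Python 3.11.15, pandas 2.3.3 and SciPy 1.17.1 were used. Alternatives were higher cutoffs, other flanks, merging, midpoints and a shortened transgenic list.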

Additional observations from a re-analysis of the deposited data

How the results depend on the processing

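No paired analysis was possible because each genotype has 1 library, and none was left out for the same reason. Changing the gene extension to 0 or 10 kb, merging peaks within 1 kb, or placing peaks by their midpoint changed none of the counts in the 8 genes or between the Sema3 genes. Stricter cutoffs did, since they shorten the lists. A minimum fold of 5, which 62 wild-type and 166 transgenic peaks met, left the members with 0 peaks in 0 genes for both lists, and the Sema3 row held 1 transgenic peak in place of 5. A minimum fold of 4 was met by 316 wild-type peaks (42.5%) and 1988 transgenic peaks (31.8%). With it the members' 4 transgenic peaks became 0, in 0 genes, while the wild-type Sema6d peak and 4 peaks of the Sema3 row were kept. Counts this small do not show that the members' peaks differ from the rest of their lists. With a minimum −log10 p of 5, which 185 wild-type and 2036 transgenic peaks met, the members held 0 in both lists and the row 4. With the transgenic list cut to the 743 peaks of lowest p the members held 0 peaks, in 0 genes, and the row 2. The bases under the peaks were not used here.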

Other observations

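The following values were chosen after the data were seen. The transgenic gap that holds Sema3c, Cacna2d1 and Hgf, from chr5:14506516 to the next peak at 18035950, is 3.53 Mb long and holds 18 coding genes whole. It ranks 35th by length among 6073 gaps between neighbouring transgenic peaks on the autosomes, whose median is 0.216 Mb. The wild-type gap over the same genes is 15.1 Mb long, from 3678006 to 18818372 on chromosome 5, and so includes all 4 Sema3 genes. It ranks 16th among 723, with a median of 1.72 Mb. Both gaps were picked because they looked long, and a gap that holds a given gene tends to be longer than the median of all gaps, so the ranks are a description only. Read density or the share of the span where reads can be placed was not measured. The 3 transgenic peaks between Sema3a and Sema3e span 105 kb. Of 6054 sets of 3 neighbouring transgenic peaks on the autosomes, 444 are tighter, and the median span is 564 kb. Of 10 coding genes whose symbol starts with Speer, 9 of them on chromosome 5, Speer3 held a transgenic peak and 0 held a wild-type peak. The shares of all coding genes were 5.68% and 0.911%.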
